A study of Mus musculus with 32 samples.

Results

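The unfolded protein response and the integrated stress response were followed through 33 named genes in the subcutaneous white fat of mice after bariatric surgery. The genes were chosen by name and by a mean of at least 10 normalized reads over 32 libraries. All 33 were present and all 33 reached that mean, out of 18124 genes in the table, of which 15588 reached it and were tested. They comprise 14 chaperones and folding factors of the endoplasmic reticulum (ER), 7 genes of ER-associated degradation, 4 genes at the start of the pathway (the sensors Ern1, Eif2ak3 and Atf6, with Xbp1) and 8 genes on the side of the transcription factor ATF4.

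The animals were C57BL/6J mice with no genetic alteration named in the labels. The VSG group had a vertical sleeve gastrectomy, which removes most of the stomach, and the sham group had a sham operation. Fat was taken 9 days after surgery at ZT1, ZT7, ZT13 and ZT19 (zeitgeber time, in hours from the moment the lights go on), from 4 animals per surgery and time, so that 16 VSG libraries stood against 16 sham libraries. Both groups received a liquid diet and an overnight fast before the operation and a liquid diet after it, and later a choice between that diet and a high-fat diet. Neither age nor sex is given in the sources used here. VSG mice had a labelled weight loss of 16.6 ± 3.81 and sham mice of 4.97 ± 2.03 (SD, n = 16 each), with no unit in the labels.

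The ER folds secreted and membrane proteins, and adipocytes secrete many. When unfolded proteins collect there, the sensor IRE1 (gene Ern1) splices the Xbp1 mRNA, ATF6 is cut to release a transcription factor, and the kinase PERK (gene Eif2ak3) phosphorylates the initiation factor eIF2α, which lowers protein synthesis and favours translation of ATF4. XBP1 and ATF6 are known to switch on chaperones and degradation factors, whereas ATF4 is known to switch on genes of amino acid supply and cell stress, and other kinases that sense amino acid shortage, viral RNA or lack of heme feed into the same ATF4 arm. The counts here are per gene: they measure the total Xbp1 mRNA, spliced and unspliced together, and no phosphorylation, cleavage or translation.

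Promoter sequences are shown because genes that carry the same response element moved in opposite directions. RefSeq promoter windows (build GRCm38.p6), from 250 bases before to 50 bases after the start, were matched by symbol for 29 of the 33 genes. The ER stress response element (ERSE), a site known to be bound by ATF6 and XBP1 with NF-Y, was searched on both strands as CCAAT and CCACG with 9 free bases between them. It was found in 9 of the 29 genes, against 0.119% of all 32851 windows in the RefSeq table. After VSG 3 of these 9 were higher (Canx, Creld2 and Derl3), 3 were lower (Hspa5, Dnajc3 and Syvn1) and 3 did not pass the test (Calr, Hsp90b1 and Pdia6). Of all genes tested 18.3% were higher and 20.9% lower. Canx was not called in 19 of 32 fits that left out 1 library each. Neither Canx nor Derl3 was called with the B cell and muscle marker lists as covariates. The matched elements of the 6 genes that changed are given below, read from CCAAT to CCACG, with the fixed letters in capitals and the free letters in lower case.
Canx (chr11:50325800-50325818): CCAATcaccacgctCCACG
Creld2 (chr15:88819520-88819538): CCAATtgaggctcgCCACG
Derl3 (chr10:75893242-75893260): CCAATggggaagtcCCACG
Hspa5 (chr2:34772025-34772043): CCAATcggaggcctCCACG
Dnajc3 (chr14:118937827-118937845): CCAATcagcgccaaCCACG
Syvn1 (chr19:6046532-6046550): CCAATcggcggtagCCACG

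The bases before the start of 4 genes show these elements in their setting, with matches in capitals. They run from base -250 to the last base before the start of the RefSeq window. That of Atf3 ends at base -8 because 7 bases next to this start lie in an annotated exon. The Atf3 stretch lies inside the annotated span of the gene (191170296 to 191218039). The bases before the far 5' end of that span are not shown. Creld2 and Dnajc3 carry an ERSE and moved in opposite directions, Herpud1 is the member with a rhythm after sham surgery, and Atf3 is the ATF4-side gene with the largest change.
Creld2, plus strand, chr15:88819396-88819645: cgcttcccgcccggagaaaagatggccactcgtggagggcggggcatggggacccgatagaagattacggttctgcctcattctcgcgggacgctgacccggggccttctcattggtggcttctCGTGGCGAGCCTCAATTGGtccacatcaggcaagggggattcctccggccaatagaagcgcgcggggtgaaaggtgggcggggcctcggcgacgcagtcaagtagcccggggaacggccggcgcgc
Dnajc3, plus strand, chr14:118937682-118937931: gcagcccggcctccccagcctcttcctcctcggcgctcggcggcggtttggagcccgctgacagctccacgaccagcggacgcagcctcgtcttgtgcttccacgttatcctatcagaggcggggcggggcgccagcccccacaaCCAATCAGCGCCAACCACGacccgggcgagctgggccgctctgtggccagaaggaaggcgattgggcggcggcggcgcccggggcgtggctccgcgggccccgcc
Herpud1, plus strand, chr8:94386179-94386428: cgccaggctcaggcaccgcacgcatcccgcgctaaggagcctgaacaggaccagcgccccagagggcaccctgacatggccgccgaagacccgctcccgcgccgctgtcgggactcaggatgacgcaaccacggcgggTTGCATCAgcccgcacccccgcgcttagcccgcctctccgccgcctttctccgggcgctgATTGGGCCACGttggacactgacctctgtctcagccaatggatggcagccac
Atf3, minus strand, chr1:191183341-191183583: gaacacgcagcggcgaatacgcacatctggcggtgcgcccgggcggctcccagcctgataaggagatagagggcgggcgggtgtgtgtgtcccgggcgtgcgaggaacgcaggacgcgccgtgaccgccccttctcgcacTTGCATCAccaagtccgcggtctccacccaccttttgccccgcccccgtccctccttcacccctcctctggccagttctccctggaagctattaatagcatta

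The Herpud1 stretch holds a second form of the element, ERSE-II (ATTGG and CCACG with 1 free base between them), which was also found in Dnajb11 and in 0.0365% of all windows. It shares the letters CCACG with the ERSE. The letters TGATGNAA, which the C/EBP and ATF composite element bound by ATF4 contains, were found in 5 of the 29 genes (Asns, Atf3, Chac1, Herpud1 and Trib3), against 3.97% of all windows. Of these 5 only Atf3 passed the test for surgery. The XBP1 site core TGACGTGG was in none of the 29 and in 0.676% of all windows. In Herpud1, the gene with matches of 2 motifs, the matched stretches did not overlap. A match describes the letters only, and binding was not measured.

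The reads assigned to genes numbered 15723832 in the shallowest library and 37161290 in the deepest, both from VSG mice. Values are the deposited normalized read counts, log2 fold changes are of VSG over sham on the log2(value + 1) scale and are given ± SE, and adjusted p-values are from limma over all 15588 genes. Adipocyte RNA was present in every library: the 13 adipocyte markers averaged 14.3 to 15.5 per VSG library and 14.5 to 15.5 per sham library on the log2 scale. These markers do not tell the fat depot and do not exclude RNA of other tissues. The list mean was lower after VSG at all 4 times (14.6, 15.0, 14.8 and 15.1 after VSG at ZT1, ZT7, ZT13 and ZT19, and 14.9, 15.2, 15.1 and 15.3 after sham surgery). Of the 13 genes 3 fell (Lep, Retn and Cidec) and Pnpla2 rose. Other cell types differed between the surgeries. Macrophage markers rose for 11 of 12 genes (list mean per library 10.7 to 12.8 after VSG and 10.5 to 12.5 after sham surgery), and neutrophil markers for 11 of 11 (5.0 to 10.5 after VSG and 3.35 to 6.09 after sham surgery). B cell or plasma cell markers stood apart in 5 libraries (VSG ZT1 replicates 1, 3 and 4, VSG ZT13 replicate 1 and sham ZT1 replicate 1), and skeletal muscle markers in 7 (VSG ZT1 replicate 2, VSG ZT13 replicate 3, VSG ZT19 replicates 1, 2 and 4, sham ZT1 replicate 4 and sham ZT13 replicate 2). No macrophage marker was at 0 in any library, and 3 neutrophil markers were at 0 in some sham libraries (Camp in 7, Ngp in 2 and Mmp8 in 1) and in no VSG library. In whole tissue fewer cells of a type and less RNA per cell cannot be told apart, and the part of adipocytes, macrophages and neutrophils in the results below was not tested.

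The first comparison asked how the 33 genes differed between the surgeries over all 4 times. The response did not move as a block: 17 of the 33 genes were called at an adjusted p under 0.05, 9 higher and 8 lower after VSG. Of all genes tested 39.2% were called, 18.3% higher and 20.9% lower. The median log2 fold change of the 33 genes was -0.01 (all genes 0.01) and the median size of the change was 0.17 (all genes 0.18). The 17 called genes kept 1 sign at all 4 times, as did 21 of all 33 genes. The call rests on the mean of the same 4 changes, so the sign count is no separate support for it. All 33 genes had VSG and sham values that overlapped. Neither count was made over all genes. On whole reads edgeR's quasi-likelihood test and DESeq2 also called 17 of the 33 genes each, against 6115 and 6558 of all 15588 genes.

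**Figure D1:**
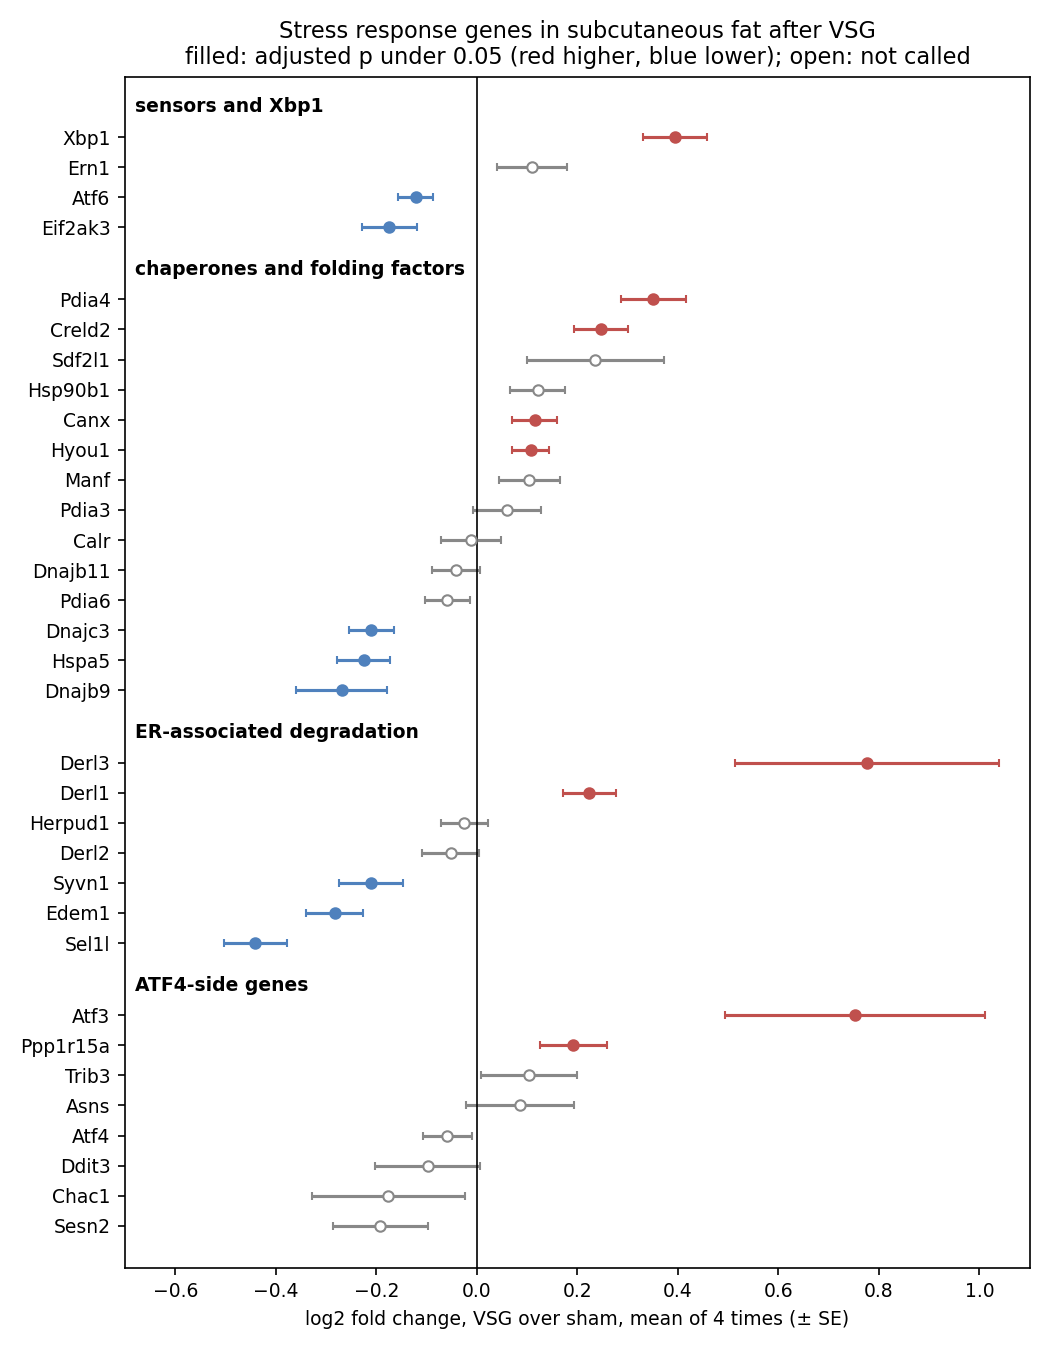
Log2 fold change (horizontal axis) of each of the 33 genes, VSG over sham, averaged over 4 times, with bars of 1 SE, grouped by role. Filled points passed the test (red higher, blue lower) and open points did not; each of the groups of sensors, chaperones and degradation genes holds both red and blue points, from -0.44 (Sel1l) to 0.78 (Derl3).

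Among the genes at the start of the pathway, Xbp1 rose and the sensors Atf6 and Eif2ak3 fell. Xbp1 (ENSMUSG00000020484, chromosome 11, 5520659 to 5525893, mm10), whose spliced mRNA encodes the transcription factor, had a lowest value of 5060.1, a median of 7829 and a highest of 9281 normalized reads in VSG fat, against 3951, 5767 and 8301 in sham fat. In 15 of 16 VSG animals it lay above the sham median, and in 5 above the highest sham animal. It averaged 7632 ± 1203 normalized reads in VSG fat and 5804 ± 922 in sham fat (SD, n = 16 each), a log2 fold change of 0.39 ± 0.06 (adjusted p = 4.39e-05). Atf6, the sensor that is cut in the Golgi, averaged 1275 ± 87.8 after VSG and 1386 ± 85.4 after sham surgery (-0.12 ± 0.03, adjusted p = 0.00735). Eif2ak3, the PERK gene, averaged 692 ± 78.0 after VSG and 780.1 ± 76.8 after sham surgery (-0.17 ± 0.05, adjusted p = 0.0125). Ern1, the IRE1 gene, did not pass the test, with 475 ± 59.6 after VSG and 441 ± 70.6 after sham surgery (0.11 ± 0.07, adjusted p = 0.217). When the 7 libraries with the most muscle marker RNA were left out, Atf6 and Eif2ak3 were no longer called (adjusted p = 0.0748 and 0.108), and Atf6 was also lost with the B cell and muscle lists as covariates (adjusted p = 0.0547).

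The 14 chaperones and folding factors split: 4 rose, 3 fell and 7 did not pass the test, with a median log2 fold change of 0.08. The called share was 50%, against 39.2% of all genes (18.3% higher and 20.9% lower). Of those that rose, Pdia4 changed most. Pdia4 (ENSMUSG00000025823, chromosome 6, 47796141 to 47813430), a protein disulfide isomerase, ranged from 2397 over a median of 3270.2 to 3984 in VSG fat, against 2059, 2451 and 3383 in sham fat. Its log2 fold change was 0.35 ± 0.06 (adjusted p = 1.71e-04), and 15 of 16 VSG animals were above the sham median. Creld2 (ENSMUSG00000023272), a disulfide isomerase-like protein that is secreted under ER stress, ranged from 592 over 802 to 1161 in VSG fat, against 575, 666 and 969 in sham fat (0.25 ± 0.05, adjusted p = 8.30e-04). Of the VSG animals 14 were above the sham median of Creld2 and 4 above the highest sham animal.

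Hspa5 fell. It encodes BiP, the main ER chaperone of the Hsp70 family, which also holds the sensors inactive, and it is the gene most used as a readout of the unfolded protein response. Hspa5 (ENSMUSG00000026864, chromosome 2, 34771970 to 34777547) had a lowest value of 9524, a median of 12232 and a highest of 14647 in VSG fat, against 11756, 14664 and 16214 in sham fat. All 16 VSG animals lay below the sham median. The log2 fold change was -0.22 ± 0.05 (adjusted p = 0.00152). After quantile normalization of the log2 values it was -0.06 and no longer called (adjusted p = 0.403).

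The J-domain co-chaperones of BiP that were called also fell. Dnajc3 (ENSMUSG00000022136, also known as P58IPK, an inhibitor of eIF2α kinases) ranged from 2361 over 2718 to 3279 in VSG fat, against 2761, 3221 and 3654 in sham fat (-0.21 ± 0.05, adjusted p = 7.35e-04). In 9 of 16 VSG animals it was below the lowest sham animal. Dnajb9 (ERdj4), which directs unfolded proteins to degradation and represses IRE1, averaged 704 ± 118 after VSG and 851 ± 170.4 after sham surgery (-0.27 ± 0.09, adjusted p = 0.0188). Without the 7 libraries high in muscle markers Dnajb9 was not called (-0.16, adjusted p = 0.278). Dnajb11 (ERdj3), the third co-chaperone of this kind in the set, had 2113 ± 198 after VSG and 2178 ± 243 after sham surgery and did not pass the test (-0.04 ± 0.05, adjusted p = 0.519).

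Canx and Hyou1 also rose, by less. Canx, the lectin chaperone calnexin, averaged 6078 ± 439 after VSG and 5617 ± 503 after sham surgery (0.12 ± 0.04, adjusted p = 0.0402). Hyou1, the nucleotide exchange factor of BiP, averaged 2141 ± 258 after VSG and 1982 ± 182 after sham surgery (0.11 ± 0.04, adjusted p = 0.0226). Canx was lost in 19 of 32 fits that left out 1 library each, and without the 5 libraries high in B or plasma cell markers neither Canx (adjusted p = 0.0549) nor Hyou1 (0.252) was called. Hsp90b1 (the Hsp90 of the ER, 0.12 ± 0.05, adjusted p = 0.0773), Sdf2l1 (a partner of BiP, 0.24 ± 0.14, adjusted p = 0.173), Manf (a secreted stress factor, 0.10 ± 0.06, adjusted p = 0.178), Pdia3, Pdia6 and Calr (calreticulin) did not pass the test. Calr was the most abundant of the 33 genes per kilobase of exon, with 5016 normalized reads per kb after VSG and 5050.4 after sham surgery.

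The degradation genes also split, 2 higher and 3 lower of 7. The called share was 71.4%, against 39.2% of all genes (18.3% higher and 20.9% lower). The genes that fell were Sel1l, the scaffold of the ubiquitin ligase complex of the ER, Syvn1, its ligase HRD1, and Edem1, a mannosidase-like protein that hands glycoproteins to it. Sel1l (ENSMUSG00000020964, chromosome 12, 91806043 to 91849157) had the smallest p of the 33 genes. It had a lowest value of 2356, a median of 2707 and a highest of 3241 in VSG fat, against 2459, 3728 and 4569 in sham fat. All 16 VSG animals were below the sham median and 4 below the lowest sham animal. The mean was 2713 ± 282 after VSG and 3693 ± 461 after sham surgery, a log2 fold change of -0.44 ± 0.06 (adjusted p = 1.26e-05). Edem1 ranged from 3253 over 4063 to 4803 in VSG fat, against 3693, 5016 and 5639 in sham fat (-0.28 ± 0.06, adjusted p = 4.06e-04), again with all 16 VSG animals below the sham median. Syvn1 averaged 2689.9 ± 349.9 after VSG and 3109 ± 359 after sham surgery (-0.21 ± 0.06, adjusted p = 0.0112).

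The derlins, membrane proteins of the channel through which substrates leave the ER, went the other way where they were called. Derl1 (ENSMUSG00000022365) ranged from 4397 over 5495 to 6688 in VSG fat, against 3586, 4513 and 5846 in sham fat (0.22 ± 0.05, adjusted p = 0.00139), with 15 of 16 VSG animals above the sham median. Derl3 had the largest fold change of the 33 genes and the lowest level per kilobase of exon. It ranged from 11.9 over 26.1 to 239 in VSG fat, against 9.30, 16.0 and 52.2 in sham fat (0.78 ± 0.26, adjusted p = 0.0205). Its highest libraries, VSG ZT1 replicate 1 with 239 and sham ZT1 replicate 1 with 52.2, were also the highest of their surgery in plasma cell markers. Without the 5 libraries high in B or plasma cell markers the Derl3 change was 0.37 (adjusted p = 0.154), and with the B cell and muscle lists as covariates 0.41 (adjusted p = 0.174). Derl2 (-0.05 ± 0.06, adjusted p = 0.486) and Herpud1, a membrane protein that recruits the ligase (-0.03 ± 0.05, adjusted p = 0.694), did not pass the test.

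**Figure D2:**
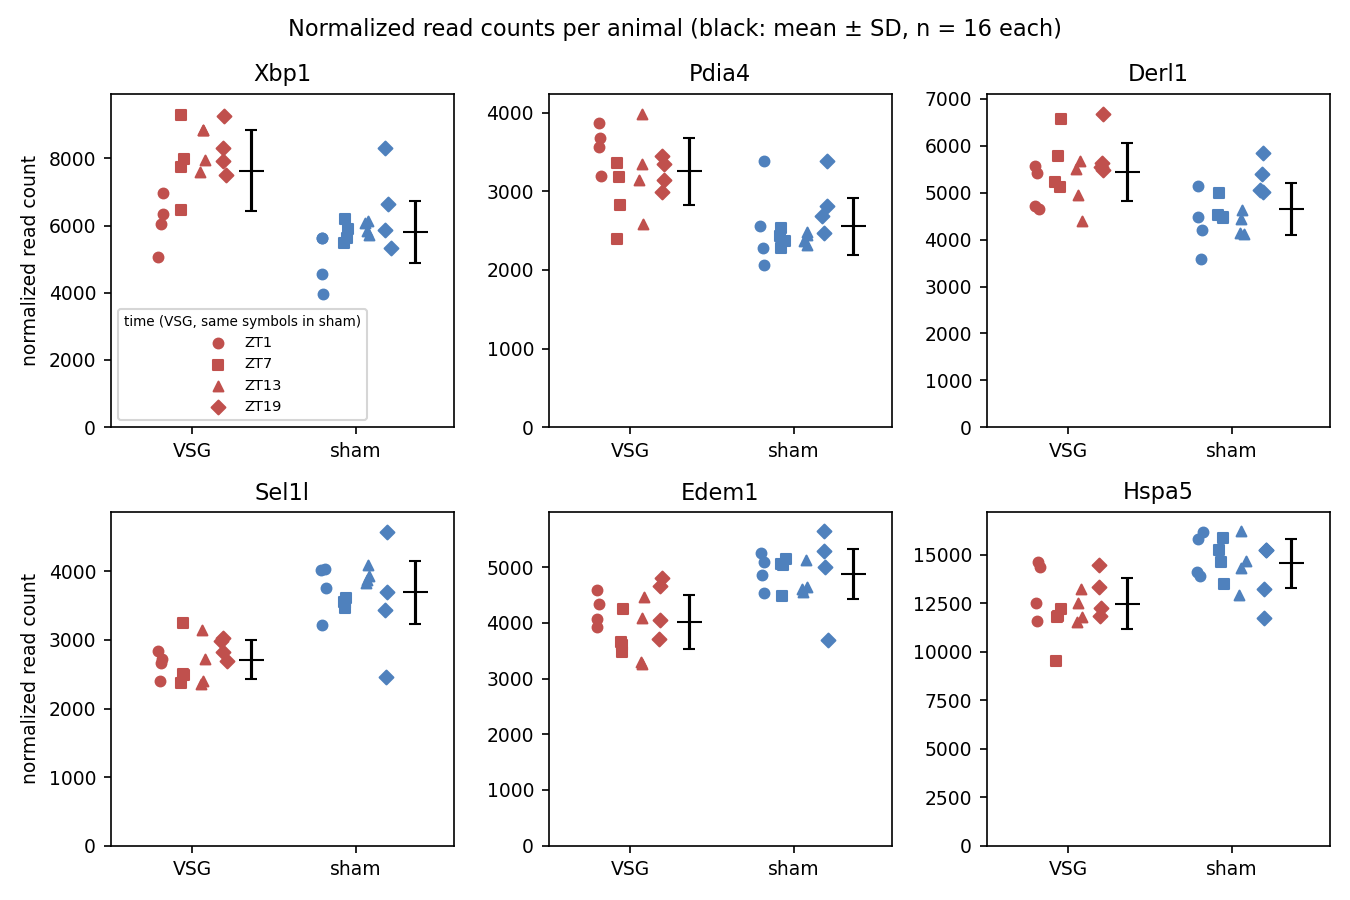
Normalized read count (vertical axis, from 0) of each animal for 6 genes, VSG on the left and sham on the right, with the mean ± SD of 16 animals in black; symbols give the time. Xbp1, Pdia4 and Derl1 lie higher after VSG, Sel1l, Edem1 and Hspa5 lie lower, and the values of the surgeries overlap in every panel.

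Sham ZT19 replicate 4 lay towards the VSG animals. Among the sham libraries it was the lowest for 5 of the 8 genes that fell (Dnajc3, Edem1, Eif2ak3, Hspa5 and Sel1l) and the highest for Xbp1 and Derl1. Its weight loss of 7.89 was above the sham mean, and its neutrophil marker mean of 6.09 was the highest in sham fat. Other marker lists did not lie towards VSG in this library. The macrophage means of the sham ZT19 libraries ended at 10.955, below the sham median of 10.966 (VSG median 12.067). The brown adipocyte mean of sham ZT19 replicate 4, 8.09, was the highest in sham fat, whereas the median was 5.84 after VSG and 6.23 after sham surgery. Singled out after its values were seen, sham ZT19 replicate 4 was left out once. The counts stayed at 9 higher and 8 lower, with a log2 fold change of -0.48 for Sel1l, 0.42 for Xbp1 and -0.24 for Hspa5. Sham ZT1 replicate 4, which had the highest weight loss of the sham mice (8.96) and is among the 7 libraries high in muscle markers, was the highest sham library for Canx, Hyou1 and Pdia4 and the lowest for Syvn1.

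On the ATF4 side 2 of 8 genes rose and none fell, and the median log2 fold change was 0.01. The called share was 25%, below the 39.2% of all genes (18.3% higher and 20.9% lower). Atf3, a stress-induced repressor of the ATF family, had the largest change of the 8. Atf3 (ENSMUSG00000026628, chromosome 1, 191170296 to 191218039) had a lowest value of 234, a median of 763 and a highest of 1579 in VSG fat, against 139, 435 and 855 in sham fat. Of the VSG animals 12 were above the sham median and 6 above the highest sham animal, while 4 were below the median. The log2 fold change was 0.75 ± 0.26 (adjusted p = 0.0226). Ppp1r15a (GADD34), the phosphatase subunit that reverses eIF2α phosphorylation, averaged 759 ± 121 after VSG and 660.1 ± 72.9 after sham surgery (0.19 ± 0.07, adjusted p = 0.0226). Its call was lost when the 5 libraries with high B or plasma cell markers were left out (adjusted p = 0.115), when the 7 with high muscle markers were (0.0675), and with the covariates (0.152).

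The best known ATF4 readouts did not pass the test. Atf4 itself had 4886 ± 524 normalized reads after VSG and 5079 ± 403 after sham surgery (-0.06 ± 0.05, adjusted p = 0.345). Ddit3 (CHOP, a transcription factor of cell death) had 1488 ± 319 after VSG and 1574 ± 244 after sham surgery (-0.10 ± 0.10, adjusted p = 0.474). Sesn2 (sestrin, a leucine sensor that restrains mTORC1) had 1375 ± 280.4 after VSG and 1588 ± 387 after sham surgery (-0.19 ± 0.09, adjusted p = 0.107). Chac1 (a glutathione-degrading enzyme), Asns (asparagine synthetase) and Trib3 (a pseudokinase that inhibits AKT) had log2 fold changes of -0.18, 0.09 and 0.10, with adjusted p-values of 0.368, 0.546 and 0.399.

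The lists were also averaged in each library. Centred on each gene's mean over all libraries, the chaperone list spanned -0.17 to 0.25 log2 units after VSG and -0.18 to 0.24 after sham surgery. The ATF4-side list spanned -0.38 to 0.43 after VSG and -0.52 to 0.15 after sham surgery. At ZT1 the ATF4-side list varied widely between animals of 1 group in both surgeries, with an SD of 0.28 after VSG and 0.28 after sham surgery, whereas the 4 sham animals at ZT7 were within 0.11 to 0.15. At ZT19 it spanned -0.07 to 0.16 in VSG animals and -0.22 to -0.08 in sham animals, with no overlap, and Atf3 made this gap. Without Atf3, left out after its values were seen, the other 7 genes spanned -0.16 to 0.17 in VSG animals and -0.08 to 0.12 in sham animals.

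**Figure D3:**
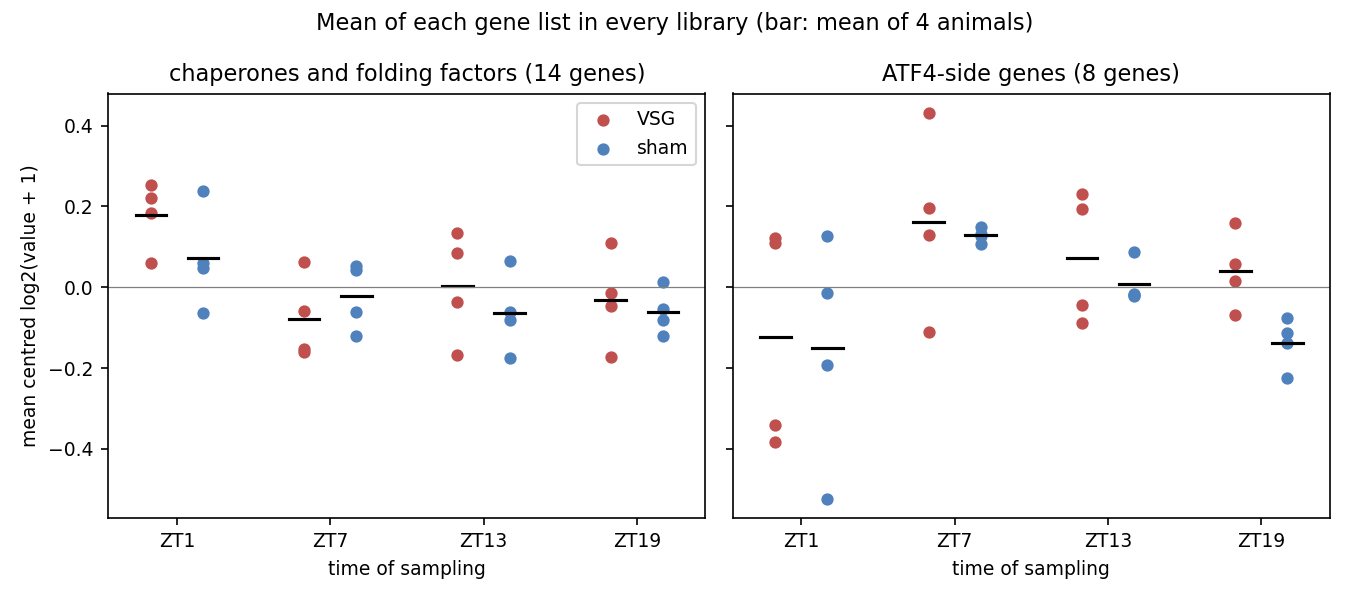
Mean of 14 chaperones (left) and of 8 ATF4-side genes (right) in every library, as centred log2(value + 1) on the vertical axis, by time of sampling, with VSG in red left of sham in blue and bars at the mean of 4 animals. Over all times the ranges of the surgeries overlap, from -0.17 to 0.25 (VSG) and -0.18 to 0.24 (sham) for chaperones. The ATF4-side values at ZT19 do not overlap, but without Atf3 they do (-0.16 to 0.17 after VSG and -0.08 to 0.12 after sham surgery).

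Genes of the same pathways outside the 33 were read from lists chosen by function, whose counts stand beside 39.2% called over all genes (20.9% lower and 18.3% higher). Of 41 genes for entry into and export from the ER 18 fell and 3 rose (51.2% called), and the largest falls were in the COPII coat genes Sec24d (-0.55 ± 0.09) and Sec23a (-0.50 ± 0.09) and in the ER retrieval receptor Kdelr3 (-0.50 ± 0.11). Other degradation genes gave 11 lower and 2 higher of 23 (56.5%), with Erlec1, a lectin that binds glycoproteins for the Sel1l complex, at -0.45 ± 0.07 and Edem3 at -0.34 ± 0.10, while Aup1 rose (0.25 ± 0.05). Other folding enzymes gave 6 lower and 4 higher of 29 (34.5%), a share below that of all genes. Serpinh1, the collagen chaperone HSP47, averaged 15932 ± 3750 after VSG and 27461 ± 7135 after sham surgery (-0.78 ± 0.13, adjusted p = 6.87e-05), while Fkbp11 (0.41 ± 0.12), which is also in the plasma cell list, and Cnpy3 (0.33 ± 0.05) rose. The fibroblast markers Col3a1 (-0.75 ± 0.14) and Lum (-0.62 ± 0.13) fell too, and the other 8 of the 10 fibroblast markers did not pass the test; the part of fibroblasts in the Serpinh1 value was not tested.

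Of 32 other known ATF4 target genes 14 fell and 3 rose after VSG (53.1% called). Their median log2 fold change was -0.28 (all genes 0.01). The largest falls were in Vldlr, the very low density lipoprotein receptor, with 2115 ± 525 after VSG and 4965 ± 1159 after sham surgery (-1.23 ± 0.12, adjusted p = 2.82e-07), in Cth, the cystathionine gamma-lyase gene (-1.11 ± 0.15), and in Gpt2, a mitochondrial alanine aminotransferase gene (-0.70 ± 0.12). Slc7a3 (0.49 ± 0.12), an arginine transporter gene with a mean of 26.6 ± 10.3 after VSG and 17.8 ± 3.48 after sham surgery, Ndrg1 (0.29 ± 0.07) and Pck2 (0.16 ± 0.06) rose. Of 20 cytosolic tRNA synthetases 4 fell and Vars rose (0.31 ± 0.11), a called share of 25%, below that of all genes. Of 18 genes of the eIF2 kinases, phosphatases and exchange factor 6 fell, and Eif2b5, a catalytic subunit of that exchange factor, rose (0.14 ± 0.05), a called share of 38.9%, which is that of the background. In a mixed list of 20 other genes of ER stress and cell death 5 rose and 4 fell (45% called). Among those that rose was the cell death gene Bcl2l11 (0.47 ± 0.10), and among those that fell Creb3l1 (-0.44 ± 0.12), a relative of Atf6.

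The second comparison asked about each time alone. At ZT1 2 of the 33 genes were called, 1 higher and 1 lower, where 5.52% of all genes were called (1.17% higher and 4.34% lower). At ZT7 4 were called, 1 higher and 3 lower, where 5.09% of all genes were (1.73% higher and 3.36% lower). At ZT13 4 were called, 3 higher and 1 lower, where 9.94% of all genes were (4.21% higher and 5.72% lower). At ZT19 limma called none of the 33 and 0% of all genes; 4 of the 33 and 1072 of all genes had an unadjusted p under 0.05, and neither edgeR (0 genes in all) nor DESeq2 (62 in all) called any of the 33. Sel1l was called at ZT1, ZT7 and ZT13. At ZT13 its 4 VSG animals had 2716, 3142, 2407 and 2356 normalized reads, against 3877, 3939.9, 4093 and 3825 in sham animals, with no overlap (-0.58 ± 0.13, adjusted p = 0.0105). At ZT19 they had 2697, 3030.3, 2823 and 2980.0, against 4569, 3695, 3442 and 2459 in sham animals (-0.26 ± 0.13, adjusted p = 0.712), and sham replicate 4 was below all VSG animals.

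Pdia4 was called at ZT1 (0.50 ± 0.13, adjusted p = 0.0280) and ZT13 (0.43 ± 0.13, adjusted p = 0.0371), Xbp1 at ZT7 (0.43 ± 0.13, adjusted p = 0.0481) and ZT13 (0.48 ± 0.13, adjusted p = 0.0220), Creld2 at ZT13 (0.37 ± 0.11, adjusted p = 0.0311), and Hspa5 (-0.39 ± 0.11, adjusted p = 0.0342) and Edem1 (-0.40 ± 0.11, adjusted p = 0.0425) at ZT7. The Xbp1 values at ZT13 were 8857, 7599, 7956 and 8842 after VSG against 5706, 6139.7, 5828 and 6081 after sham surgery, with no overlap. The Hspa5 values at ZT7 were 11854, 9524, 11804 and 12228 after VSG against 15846, 14642, 15248 and 13494 after sham surgery, also with no overlap. Apart from Sel1l at ZT13, each of these calls at a single time was lost in some fits that left out 1 library. At ZT7 the call held in only 11 of 32 such fits for Sel1l and in 13 for Xbp1. With only the 8 libraries of that time, the calls of Hspa5 and Xbp1 at ZT7, Sel1l at ZT1 and Pdia4 at ZT1 and ZT13 were lost. Leaving out the 7 libraries with high muscle markers also lost the calls at ZT7 and ZT13. None of the 7 is from ZT7, so the ZT7 log2 fold changes were the same in that fit. Only the shared estimate of the spread and the adjustment differed there.

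An interaction of surgery with time tested whether the change depended on the hour. No gene of the table was called (0%), and of the 33 genes none had an unadjusted p under 0.05. Over all genes 225 had an unadjusted p under 0.05, edgeR called 0 and DESeq2 called 1. Atf3 at ZT19 had 1298, 328, 1246 and 368 normalized reads after VSG against 359, 358, 139 and 159.7 after sham surgery (1.52 ± 0.52, adjusted p = 0.633), and its change at the other times was 0.41 to 0.63, none called.

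A 24 h rhythm was found for 1 of the 33 genes after sham surgery, against 1.6% of all genes, and for none after VSG, against 0.507% of all genes. At an unadjusted p under 0.05 there were 8 of the 33 after VSG (1352 of all 15588 genes) and 5 after sham surgery (2218 of all genes). After VSG edgeR and DESeq2 called none of the 33 (94 and 207 of all genes). After sham surgery they called 1 each (257 and 846 of all genes). The rhythmic gene after sham surgery was Herpud1. After VSG its means were 2326 ± 367, 2617 ± 169, 2709.9 ± 229 and 2290.3 ± 144 at ZT1, ZT7, ZT13 and ZT19, and after sham surgery 2148 ± 215, 2584 ± 167, 2976 ± 102 and 2433 ± 149 (SD, n = 4 each). Its amplitude, the height of the fitted peak over the mean in log2 units, was 0.15 after VSG with a peak at ZT10.3 (adjusted p = 0.324) and 0.24 after sham surgery with a peak at ZT12.3 (adjusted p = 0.00873). The difference between the rhythms was not called for Herpud1 (unadjusted p = 0.129) or for any gene (0%, with 172 genes at an unadjusted p under 0.05, 0 called by edgeR and 1 by DESeq2).

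Other members had larger amplitudes but more spread. Chac1 had an amplitude of 0.55 after VSG with a peak at ZT10.7 (adjusted p = 0.250) and of 0.54 after sham surgery with a peak at ZT8.58 (adjusted p = 0.147). Asns had its lowest mean at ZT1, with 1393 ± 200.1 after VSG and 1203 ± 145 after sham surgery, and its highest at ZT19, with 2599 ± 706 after VSG and 2656 ± 1125 after sham surgery. Its amplitudes were 0.36 after VSG and 0.38 after sham surgery, neither called (adjusted p = 0.563 and 0.292). The chaperone Creld2 was highest at ZT1 in both surgeries, with 1051 ± 73.7 after VSG and 837 ± 104 after sham surgery (amplitudes 0.20 and 0.21, adjusted p = 0.446 and 0.213).

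**Figure D4:**
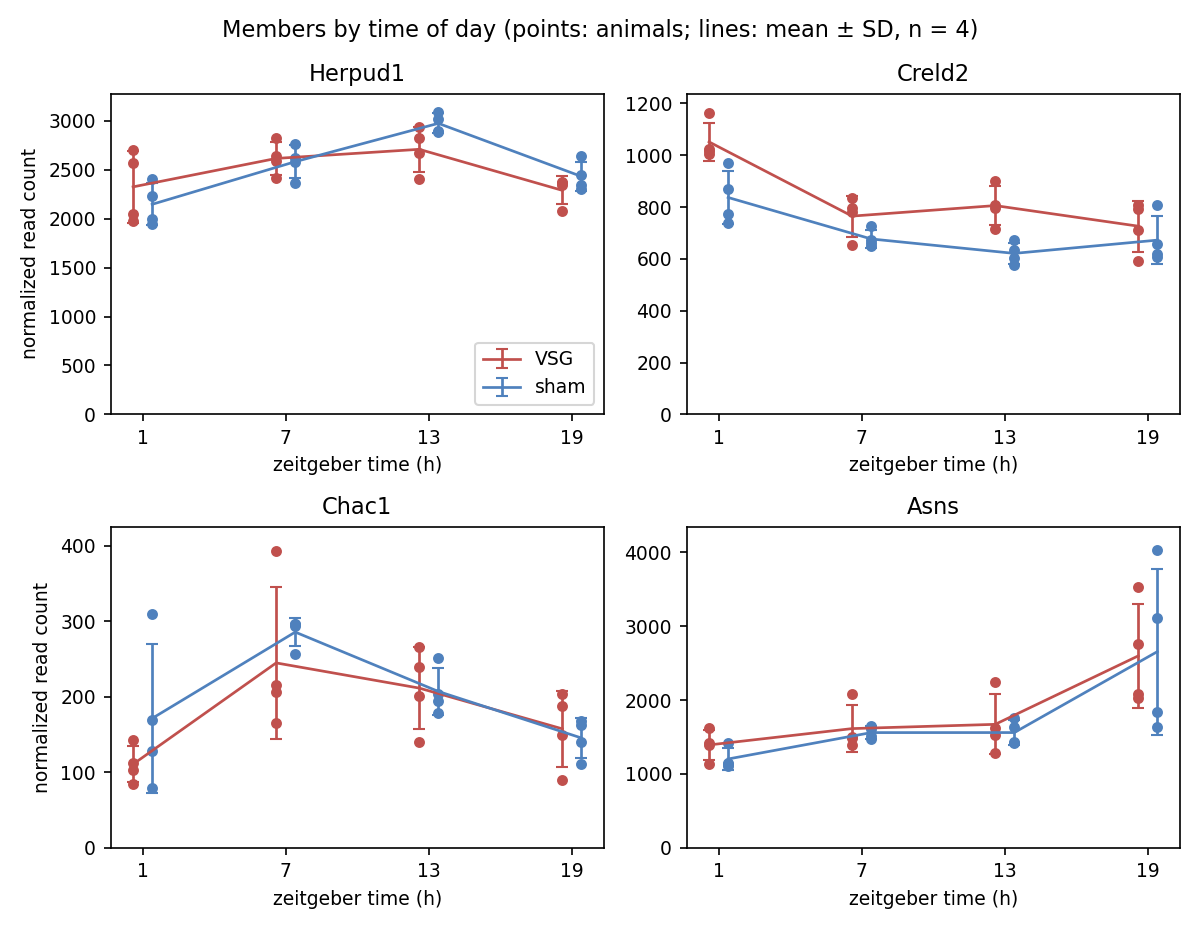
Normalized read count (vertical axis, from 0) against zeitgeber time in hours for 4 genes, with points for animals and lines for the mean ± SD of 4 animals, VSG in red and sham in blue. Herpud1 in sham fat is highest at ZT13 (2976 ± 102), Creld2 is highest at ZT1 and Asns at ZT19 in both surgeries.

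The last comparison asked whether the genes went with the weight lost by each animal, within a surgery and allowing a mean for each time. After VSG 1 of the 33 genes had a called slope, a positive one, against 2.71% of all genes (1.77% positive and 0.943% negative). After sham surgery none of the 33 had one, against 0.00642% of all genes. In each surgery 5 of the 33 had an unadjusted p under 0.05, against 3140 of all 15588 genes after VSG and 2436 after sham surgery. Of the 33 edgeR called 1 after VSG and 0 after sham surgery (375 and 2 of all genes). DESeq2 called 1 and 2 (1325 and 608 of all genes). Sdf2l1 was the called gene, at 0.10 ± 0.02 log2 units per unit of weight loss (adjusted p = 0.0339). The VSG animals that lost least, 10.59 and 11.05, had 239.9 and 242 normalized reads of Sdf2l1, and those that lost most, 23.12 and 22.8, had 609.9 and 556. The highest value, 723, was in a VSG animal that had lost 19.57. The lowest, 207, was in one that had lost 15.25, near the VSG median of 16.0. The call held in 7 of 16 fits that left out 1 library each, where the slope was 0.10 to 0.12, and was lost without the 2 animals farthest from the median (adjusted p = 0.305). It was also lost with no time term (0.0714), with array weights (0.0510), and without the 5 (0.128) or the 7 (0.108) libraries with high markers of other tissues.

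Slopes of the chaperone list were positive for 13 of 14 genes after VSG, with a median of 0.01, and for 11 of 14 after sham surgery, with a median of 0.01, while the median over all genes was -0.00039 after VSG and -0.0020 after sham surgery. The genes were measured in the same libraries and are not independent points. Of the ATF4-side genes 4 of 8 had a positive slope in each surgery. After VSG the slopes of Creld2 (0.03 ± 0.01, adjusted p = 0.125), Pdia4 (0.03 ± 0.01, adjusted p = 0.158) and Asns (-0.05 ± 0.02, adjusted p = 0.156) did not pass the test. Nor after sham surgery did those of Pdia4 (0.07 ± 0.02, adjusted p = 0.0977) and Ern1 (0.08 ± 0.02, adjusted p = 0.115). Macrophage markers had called positive slopes after VSG as well, 7 of 12 genes, among them C1qa (0.14 ± 0.03, adjusted p = 0.0279), and 3 other ATF4 target genes had called negative slopes, Cth (-0.11 ± 0.02, adjusted p = 0.0264), Vldlr (-0.07 ± 0.02, adjusted p = 0.0393) and Psph (-0.06 ± 0.01, adjusted p = 0.0363). The part of macrophages in the Sdf2l1 slope was not tested.

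**Figure D5:**
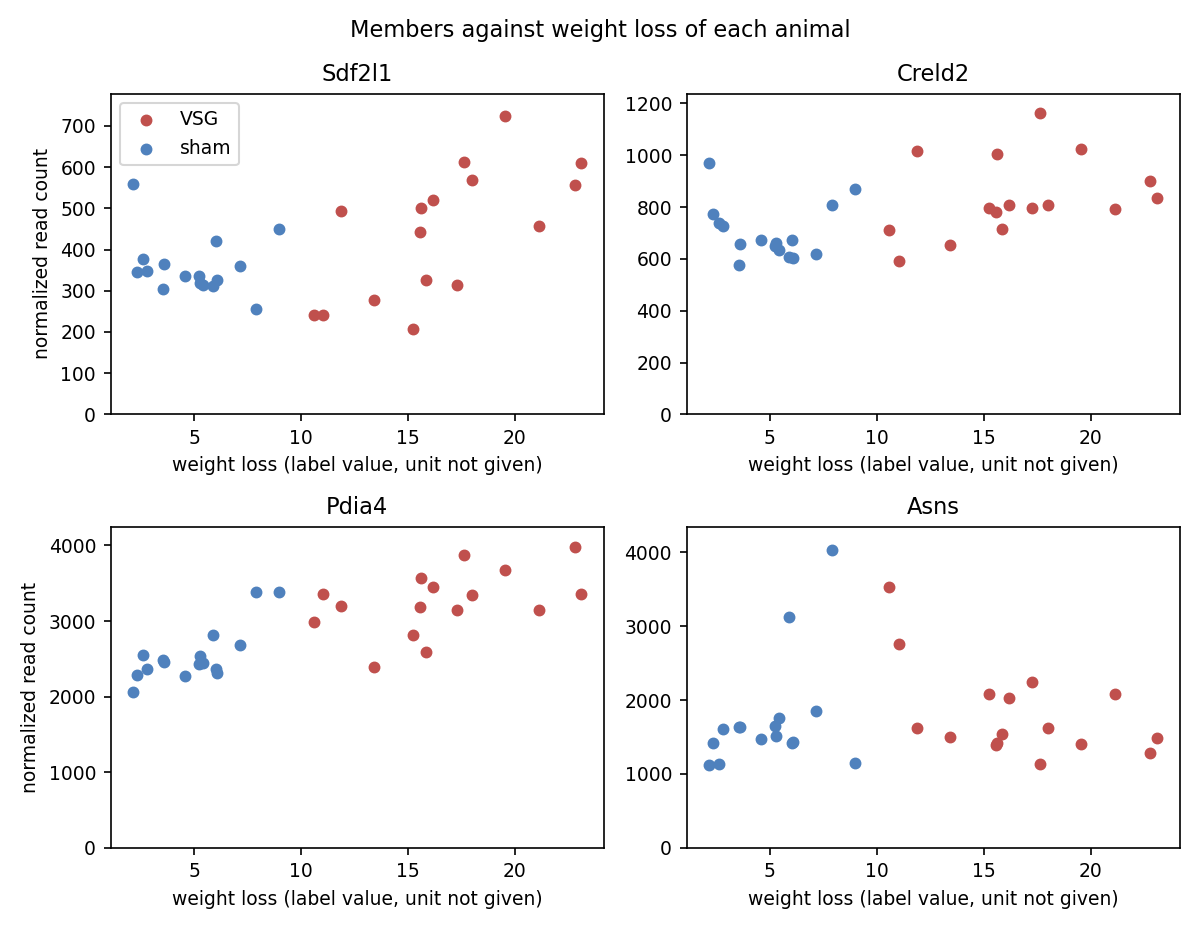
Normalized read count (vertical axis, from 0) of 4 genes against the weight loss of each animal as the labels give it, with no unit; red points are VSG animals and blue points sham animals. Within VSG the Sdf2l1 values are 239.9 and 242 in the animals that lost least and 609.9 and 556 in those that lost most, while the lowest value, 207, belongs to an animal with a loss of 15.25.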

How the data were processed

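RNA of subcutaneous white fat was sequenced from 32 mice, whose surgery, hour and weight loss the labels give. The submitters' processing notes name the build mm10, DESeq2 1.24.0, R 3.6.3, STAR 2.5.2a, bcl2fastq 2.17.1.14 and featureCounts 1.5.0-p1, without their roles. In the deposited signal table each column is a library's gene counts over its own size factor: 100% of values were whole multiples of 1 step (tolerance 0.001), so that whole reads could be recovered. The sources used here do not say whether reads were counted by strand, so reads of overlapping and antisense genes cannot be told apart. Libraries of 1 group were compared as 48 pairs (chi-square per degree of freedom 19.6 to 172), and no pair was counted as 1 sample. The other deposited tables were not used.

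Values were tested as log2(value + 1) for genes with a mean of at least 10 with limma 3.58.1 (R 4.3.3, mean-variance trend, Benjamini-Hochberg adjustment, called under 0.05), with 8 group means for the effect of surgery and its interaction with time, a 24 h cosine and sine per surgery for rhythms, and a mean per time plus a slope for weight loss within 16 libraries. Other settings were tried: a pseudocount of 0.5 or 5, a minimum mean of 50 or none, TMM, quantile normalization, array weights, B cell and muscle covariates, edgeR 4.0.16 and DESeq2 1.42.0 on whole reads, the 8 libraries of each time alone, 4 time means for rhythms, ranks of weight loss or no time term for slopes, and leaving out libraries. The steps were tested on simulated data. The 33 genes and the lists were chosen with earlier results of these data known. All 33 genes are accounted for; up to 3 called genes per direction and list were named outside them, and for slopes and marker lists the genes named were chosen after their values were seen.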

Additional observations from a re-analysis of the deposited data

Results flagged for a closer look

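In 23 of 264 groups of 4 animals (33 genes in 8 groups), 1 animal stood far from the other 3; chance alone flags about 1 group in 20. The values are normalized reads. After VSG at ZT7 Hspa5 was low in replicate 2 (9524), Hyou1 low in replicate 2 (1591), Canx low in replicate 3 (5479), Manf low in replicate 1 (1319) and Sel1l high in replicate 1 (3241). After VSG at ZT1 Creld2 was high in replicate 1 (1161). After VSG at ZT13 Pdia6 was low in replicate 2 (4793) and Derl2 high in replicate 3 (1657). After VSG at ZT19 Pdia6 was low in replicate 3 (6026), Herpud1 low in replicate 1 (2076), Syvn1 low in replicate 4 (2199.7) and Derl1 high in replicate 2 (6688).

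After sham surgery at ZT7 Dnajb9 was high in replicate 3 (1287), Chac1 and Edem1 were low in replicate 4 (257 and 4481) and Derl1 was high in replicate 4 (4989.8). After sham surgery at ZT1 Pdia6 was low in replicate 1 (5902) and Asns high in replicate 3 (1421). After sham surgery at ZT13 Pdia6 and Edem1 were high in replicate 4 (6413 and 5120.3). After sham surgery at ZT19 Calr was low and Trib3 high in replicate 2 (11819 and 638), and Manf was high in replicate 1 (1594). Sham ZT7 replicate 4 held 3 of these values, more than any other library.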

How the results depend on the processing

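Of the 17 genes called over all times, 16 were called in all 32 fits that left out 1 library (all but Canx), and 9 in every fit run: Atf3, Creld2, Derl1, Dnajc3, Edem1, Pdia4, Sel1l, Syvn1 and Xbp1. Leaving out 1 library gave 8 to 11 genes higher and 8 to 9 lower over all times, 0 to 5 called at ZT1, 0 to 5 at ZT7, 1 to 6 at ZT13, 0 at ZT19, 1 rhythmic after sham surgery, 0 to 1 with a slope after VSG and 0 to 2 after sham surgery. Without the 5 libraries high in B or plasma cell markers, 5 genes were higher, 0 were called at ZT1 and 1 at ZT13, and 0 had a slope after VSG. Without the 7 libraries high in muscle markers, 5 genes were lower, 1 was called at ZT1, 0 at ZT7 and 0 at ZT13, and 0 had a slope after VSG. Both settings, and leaving out the 2 animals farthest from the median weight loss (0 slopes after VSG), were chosen after seeing the data. Fewer libraries were fitted: VSG ZT1 keeps 1 library in the first and VSG ZT19 1 in the second, each assumed to vary like the other groups. Over all times, fewer of all genes were called in both settings as well. None of the 7 libraries is from ZT7, so the ZT7 log2 fold changes were the same in the second. Array weights, whose estimation stopped before convergence, gave 5 called at ZT1 (25.2% of all genes), 10 at ZT7 (26.3%), 14 at ZT13 (34.5%), 3 at ZT19 (5.81%), 5 rhythms after sham surgery (12.9%), 1 after VSG (1.33%) and 0 slopes after VSG (2.16%). Leaving out the time term gave 0 slopes after VSG. Quantile normalization gave 4 called at ZT1 and 2 at ZT7, no filter 2 at ZT7, and the 8 libraries of a time alone 0 at ZT1 and 2 at ZT7. Covariates gave 0 called at ZT1, 2 slopes after VSG and 1 after sham surgery. DESeq2 gave 7 at ZT13 (2494 of all genes) and 2 slopes after sham surgery (608 of all genes). With 4 time means in place of a cosine, 2 genes were called after sham surgery and 2 after VSG. For no time term, quantile normalization, no filter, the 8 libraries alone, covariates and 4 time means, the share of all genes was not taken beside these counts. The causes were not tested.

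Of genes not called, the sign of the log2 fold change over all times turned for Calr (0.15 with quantile normalization, adjusted p = 0.0431, 0.0227 with array weights, 0.0116 without the 5 libraries and -0.0323 to 0.0125 without 1 library), Dnajb11 (0.0048 without the 5), Pdia6 (0.0190 with quantile normalization), Ddit3 (0.0586 with covariates) and Herpud1 (0.0099 with quantile normalization, 0.0143 with array weights, 0.0229 without the 7). No paired analysis was possible because replicate numbers only name animals and every group holds different animals.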
